A study of Arabidopsis thaliana with 18 samples.

Results

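Small heat shock proteins that act inside organelles were followed across 3 genotypes and 3 treatments in whole Arabidopsis thaliana seedlings. The 5 genes are HSP21 (AT4G27670, probe set 253884_at) of the plastid, ATHSP22.0 (AT4G10250, probe set 255811_at) of the endoplasmic reticulum, HSP23.6-MITO (AT4G25200, probe set 254059_at) and HSP23.5 (AT5G51440, probe set 248434_at) of the mitochondrion, and HSP26.5 (AT1G52560, probe set 262148_at). They were taken by name, 1 probe set each, as 5 of the 22746 probe sets on the array other than controls, and all 5 were among the 17379 probe sets tested. The rule that names them uses no measured value, though the genes were chosen with earlier results of these data known. The array's description of HSP26.5 calls it putatively chloroplast-localized by similarity to a protein of the moss Funaria hygrometrica, so it is described here without a compartment.

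All plants were Col-0 seedlings, 7 days old, raised at 22 °C on plates of MS medium at a strength of 0.5 with 1% sucrose. WT is the wild type. OE, which the labels name HSFA6b-OE, overexpresses HSFA6b, a heat shock factor of class A, and RD, HSFA6b-RD, carries a dominant-negative form of that factor. Seedlings of each genotype were left at 22 °C (control), kept at 37 °C for 1 h (heat), or treated with 150 mM NaCl for 6 h (NaCl). Each of the 9 groups had 2 arrays, which the labels call biological replicates, and an array is named by its genotype, treatment and replicate number, as in RD NaCl 1. The labels give neither the promoter of either transgene nor the number of independent lines, and the HSFA6b transcript was not analysed here, so the genotype labels could not be checked by its level. The signal of the whole seedling was measured, in which fewer cells of a type and less RNA per cell cannot be told apart.

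Small heat shock proteins are chaperones with a conserved alpha-crystallin domain that hold unfolding proteins in a state from which other chaperones can refold them, without using ATP themselves. Plants have separate classes in the cytosol and nucleus, plastid, mitochondrion, endoplasmic reticulum and peroxisome. The organelle forms are all encoded in the nucleus and carry targeting or signal sequences. Their genes are mostly silent in unstressed vegetative tissue and are switched on by heat shock factors, which bind heat shock elements in their promoters.

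The signal is a brightness on a linear scale that the authors computed with MAS5, and each value carries a detection call of Present, Marginal or Absent. Present calls covered 63.32% to 73.59% of the probe sets other than controls on an array, and the lowest signal called Present lay between 6.2 and 14.6. Seedling tissue was checked by markers. The 3 chlorophyll-binding protein genes LHCB4.1, LHCB4.2 and LHCB4.3, added after the files were seen, were Present on 18 of 18 arrays, the root genes EXPA7, SHR, SCR, EXPA18 and GL2 on 9 to 17 arrays, and the seed storage gene SESA3 on 0. Heat arrays carried more signal from the mitochondrial genome, with a median log2 signal over 23 probe sets of 9.57 to 10.14 against 6.38 to 6.97 on the control arrays. RD NaCl 1 stood apart from the other NaCl arrays on that measure, at 8.05 against 6.18 to 7.01, and its partner RD NaCl 2 lay at 6.41. WT heat 1, WT NaCl 1 and OE NaCl 1 carry a different leading code in the file headers from the other 15 arrays. They are called the second array series here, and the other 15 the first, though the meaning of the code is not stated.

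In the control seedlings the 5 genes were at or near the limit of detection in WT and RD, and 3 of them were Present on both OE arrays. HSP21, known to protect thylakoid membranes and the plastid transcription machinery under heat, had signals of 5.5 and 81.2 in WT, 431.3 and 862.9 in OE, and 4.3 and 73.2 in RD. Both OE arrays were Present and lay above all 4 arrays of WT and RD, in each of which 1 array was Absent. ATHSP22.0, a small chaperone with an endoplasmic reticulum signal, had signals of 47.7 and 138.5 in WT, 568.4 and 667.2 in OE, and 60.5 and 142.6 in RD. OE again stood above WT and RD, which overlapped, and only 1 of the 4 WT and RD arrays was called Present. HSP26.5 had signals of 7.6 and 43.7 in WT, 74.9 and 107.4 in OE, and 2.3 on both RD arrays. The 3 groups did not overlap, and HSP26.5 was Absent on both RD arrays. The mitochondrial pair was hardly detected. HSP23.6-MITO was Absent on all 6 control arrays, at 20.8 and 53.6 in WT, 63.0 and 106.4 in OE, and 4.4 and 10.7 in RD. HSP23.5 was Present on 1 of the 6, at 48.6 and 62.1 in WT, 66.7 and 56.5 in OE, and 37.1 and 45.1 in RD.

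Heat brought all 5 genes to the top of the intensity range in every genotype. On the 6 heat arrays each of them lay between the percentiles 99.45 and 99.91 of its array, at ranks 21 to 125 from the brightest of 22746 probe sets. HSP21 reached 30213.5 and 27906.8 in WT, 30607.6 and 30033.2 in OE, and 26696.6 and 20595.4 in RD. ATHSP22.0 reached 28796.4 and 36019.3 in WT, 26226.0 and 25480.5 in OE, and 32047.9 and 22442.0 in RD. All heat values of both genes lay far above every control and NaCl value. HSP23.6-MITO reached 32919.9 and 35427.1 in WT, 33380.6 and 26728.0 in OE, and 32324.7 and 21703.3 in RD. HSP23.5 reached 22853.1 and 25453.5 in WT, 19181.0 and 18003.0 in OE, and 19997.1 and 15002.3 in RD. HSP26.5 reached 23905.5 and 31498.5 in WT, 27152.6 and 28654.6 in OE, and 21400.0 and 16970.8 in RD. For each of the 5 genes RD heat 2 was the lowest of the 6 heat arrays. The highest signal of any probe set on RD heat 2 was 31438.1, against 41863.7 to 52673.6 on the other heat arrays, and the part of this in the lower values was not tested.

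**Figure D1:**
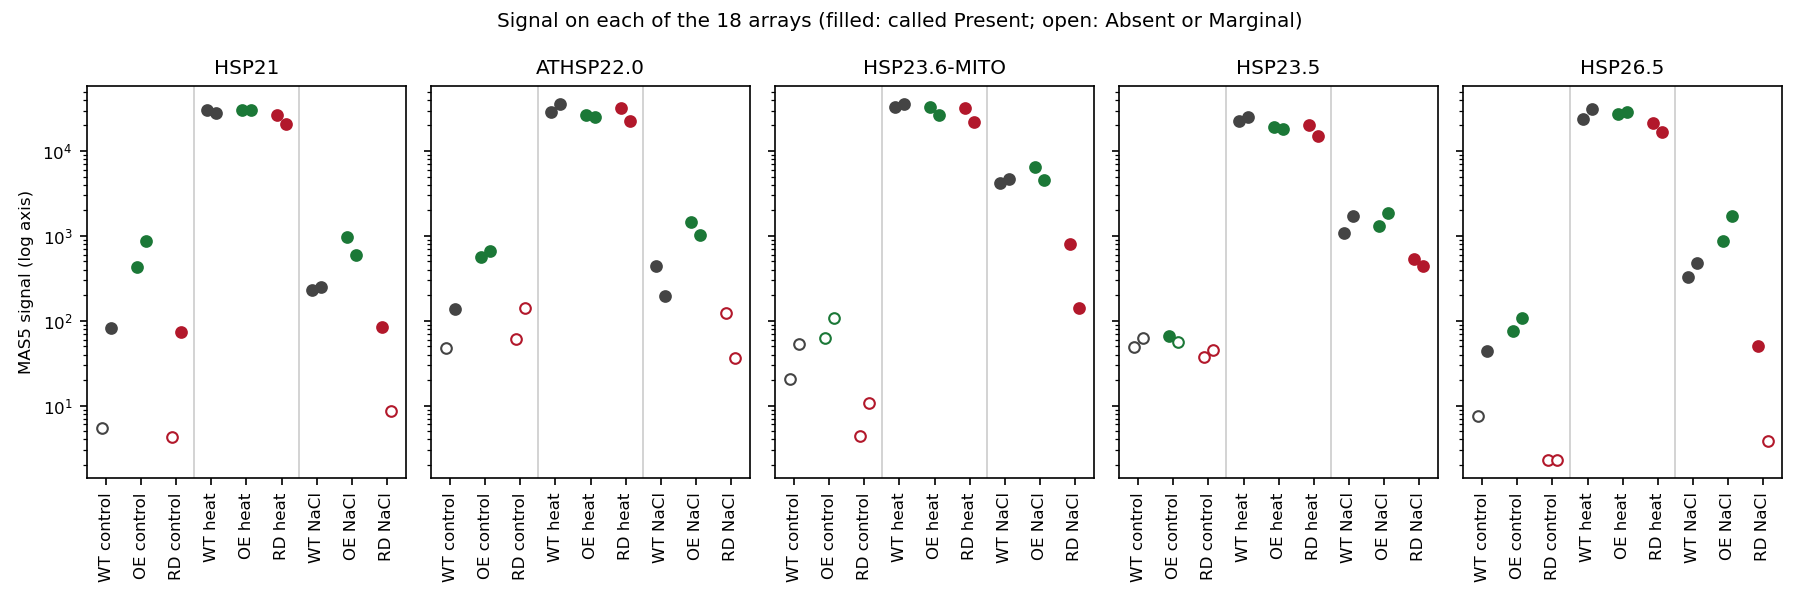
MAS5 signal (log axis) of the 5 genes on each of the 18 arrays, with replicate 1 to the left of replicate 2 in every group, WT in grey, OE in green and RD in red, and filled points where the array called the gene Present. Every gene lies at 15002.3 or above on all 6 heat arrays, whereas under NaCl the RD arrays lie below the WT and OE arrays for every gene.

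The question for heat against control was how strongly each organelle's small chaperone responds to 37 °C. In WT all 5 genes rose, where 6.70% of the 17379 tested probe sets rose (limma over all 18 arrays, Benjamini-Hochberg adjusted p under 0.05). The median of the 5 log2 differences was 10.00, against -0.29 over all tested probe sets. The log2 difference of HSP21 was 10.42 ± 1.28 (± SE throughout, adjusted p = 7.1e-05 by limma), and from 8.48 without WT control 1 (Absent, 5.5) to 12.37 without WT control 2 (81.2). HSP26.5 rose by 10.56 ± 0.91 (adjusted p = 2.19e-06 by limma), and by 9.29 or 11.82 without WT control 1 or 2, and HSP23.6-MITO by 10.00 ± 0.65 (adjusted p = 1.16e-07 by limma). HSP23.5 rose by 8.78 ± 0.27 (adjusted p = 2.09e-10 by limma) and ATHSP22.0 by 8.63 ± 0.60 (adjusted p = 2.14e-07 by limma), the latter 396-fold. For HSP23.6-MITO and HSP23.5, which had no Present control array in WT, the folds are bounds of at least 1023-fold and at least 439-fold, taken against the lowest Present signal of each control array where this exceeded the measured one.

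In OE all 5 genes rose as well, with 6.44% of tested probe sets rising, and in RD all 5 rose, with 5.41% rising. The log2 differences in OE were 5.64 ± 1.28 for HSP21, 5.39 ± 0.60 for ATHSP22.0, 8.51 ± 0.65 for HSP23.6-MITO, 8.24 ± 0.27 for HSP23.5 and 8.28 ± 0.91 for HSP26.5, with limma adjusted p-values from 2.67e-10 to 0.00794. The lowest of these values belonged to HSP21 and ATHSP22.0, the genes with the OE control signals of 431.3 to 862.9 given above. In RD the differences were 10.37 ± 1.28 for HSP21, 8.17 ± 0.60 for ATHSP22.0, 11.91 ± 0.65 for HSP23.6-MITO, 8.73 ± 0.27 for HSP23.5 and 13.02 ± 0.91 for HSP26.5, with limma adjusted p-values from 1.48e-10 to 0.000101. The RD control arrays of HSP26.5 both read 2.3 and were Absent. Its bound of at least 2238-fold is taken against the lowest Present signal of any probe set on each of these arrays. HSP21 in RD differed by 8.32 without RD control 1 and by 12.41 without RD control 2. Without OE control 1 the heat difference of HSP21 in OE was 5.14 (adjusted p = 0.0714 by limma), and without OE heat 1 it was 5.62 (adjusted p = 0.0522 by limma). OE heat 1 had a ratio of 3′ to 5′ actin control signal of 8.29, against 2.23 to 4.35 on the other arrays. Without it the other 4 genes rose in OE by 5.37 (ATHSP22.0), 8.35 (HSP23.6-MITO), 8.20 (HSP23.5) and 8.32 (HSP26.5). Over all probe sets, 1164 rose and 2304 fell in WT, 1120 rose and 2139 fell in OE, and 940 rose and 1636 fell in RD. After quantile normalization the numbers were 1426 and 1452 in WT, 1349 and 1267 in OE, and 1143 and 933 in RD, and the medians of all probe sets moved from -0.29 to -0.13 in WT, from -0.29 to -0.13 in OE and from -0.27 to -0.10 in RD.

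NaCl at 6 h raised the mitochondrial pair in every genotype, HSP26.5 in WT and OE and, near the threshold, in RD, and ATHSP22.0 in WT. HSP23.6-MITO had signals of 4235.0 and 4717.6 in WT, 6408.9 and 4599.4 in OE, and 796.4 and 142.9 in RD. All 6 values were Present and lay above all control values, and both RD values lay below the 4 of WT and OE. HSP23.5 had signals of 1075.7 and 1693.2 in WT, 1310.6 and 1859.8 in OE, and 537.8 and 445.2 in RD. Here too the RD arrays were the lowest, and WT and OE overlapped. HSP26.5 had signals of 325.1 and 481.2 in WT, 880.7 and 1704.7 in OE, and 49.9 and 3.8 in RD, so that the 3 genotypes did not overlap and RD NaCl 2 was Absent. HSP21 had 229.1 and 249.7 in WT, 959.5 and 593.7 in OE, and 84.5 and 8.6 in RD. ATHSP22.0 had 444.9 and 198.2 in WT, 1469.0 and 1021.7 in OE, and 124.3 and 36.9 in RD, where both arrays were Absent. For both genes OE lay above WT and WT above RD on all arrays. How many of all tested probe sets show such an order was not computed.

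In WT 4 of the 5 genes rose under NaCl, where 12.0% of the tested probe sets rose. The median of the 5 log2 differences was 4.44, against -0.19 over all tested probe sets. HSP23.6-MITO rose by 7.06 ± 0.65 (adjusted p = 7.42e-06 by limma), at least 134-fold. HSP23.5 rose by 4.62 ± 0.27 (adjusted p = 1.16e-07 by limma), at least 24.6-fold, and HSP26.5 by 4.44 ± 0.91 (adjusted p = 0.0028 by limma), 21.7-fold. ATHSP22.0 rose by 1.87 ± 0.60 (adjusted p = 0.0298 by limma), 3.65-fold. That call rests on single arrays, since the difference was 1.1 (adjusted p = 0.268 by limma) without WT control 1 and 1.29 (adjusted p = 0.168 by limma) without WT NaCl 1, and 1.64 (adjusted p = 0.0524 by limma) with the array series as a block. The plastid gene HSP21 differed by 3.50 ± 1.28 and did not pass (adjusted p = 0.053 by limma), with WT control arrays that read 5.5 and 81.2. It passed with a floor of 16 on the signals (2.73, adjusted p = 0.0204 by limma), after quantile normalization (3.48, adjusted p = 0.0478 by limma) and without WT control 2 (5.44, adjusted p = 0.0168 by limma).

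In OE 3 genes rose under NaCl, with 11.5% of tested probe sets rising, and in RD 3 rose, with 12.0% rising. The same 3 genes passed in both genotypes. HSP23.6-MITO rose by 6.05 ± 0.65 in OE and by 5.62 ± 0.65 in RD, and HSP23.5 by 4.67 ± 0.27 in OE and by 3.58 ± 0.27 in RD, with limma adjusted p-values from 1.18e-07 to 4.69e-05. HSP26.5 rose by 3.77 ± 0.91 in OE (adjusted p = 0.00849 by limma) and by 2.58 ± 0.91 in RD (adjusted p = 0.0444 by limma). In OE the adjusted p of HSP26.5 was 0.0596 without OE control 1 and 0.0749 without OE NaCl 2 (limma). In RD HSP26.5 was Present on 1 of 4 arrays, RD NaCl 1, and the difference was 0.72 without that array (adjusted p = 0.497 by limma) and 0.82 with a floor of 16 (adjusted p = 0.239 by limma). That call was also lost without a filter (adjusted p = 0.0534), without an intensity trend (adjusted p = 0.0592), without RD control 1 (adjusted p = 0.131) and without RD control 2 (adjusted p = 0.143, all by limma). HSP21 and ATHSP22.0 did not pass in either line. Their differences from control were 0.31 ± 1.28 and 0.99 ± 0.60 in OE, where 95% intervals ran from -2.44 to 3.06 and from -0.29 to 2.27. In RD they were 0.60 ± 1.28 and -0.46 ± 0.60, with 95% intervals from -2.15 to 3.35 and from -1.74 to 0.83.

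**Figure D2:**
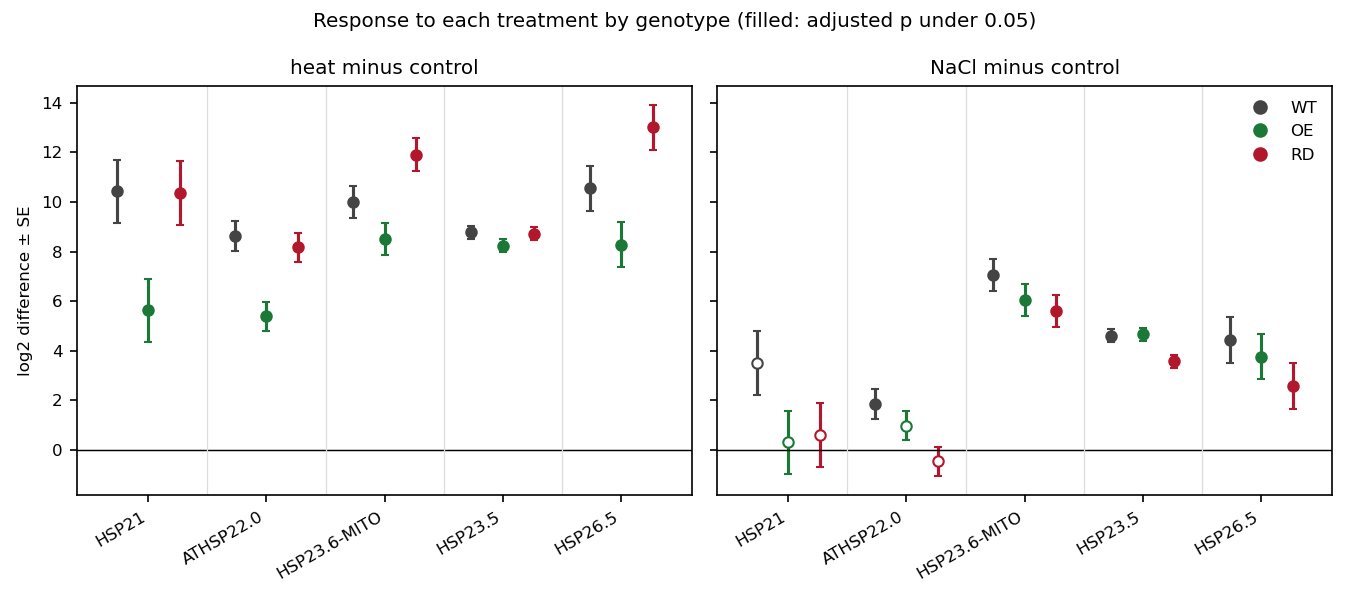
Log2 difference from control (± SE) of each gene after heat (left) and NaCl (right) in WT (grey), OE (green) and RD (red), with filled points where the limma adjusted p is under 0.05. All 15 heat points are filled and lie between 5.39 and 13.02, whereas under NaCl HSP23.6-MITO, HSP23.5 and HSP26.5 are filled in all genotypes, ATHSP22.0 in WT and HSP21 in none.

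The treatments were also compared directly, to ask how far the salt level fell short of the heat level. All 5 genes were higher under heat than under NaCl in WT, where 11.7% of tested probe sets were higher, in OE, where 13.9% were, and in RD, where 16.3% were. HSP23.6-MITO had the smallest difference in WT, 2.93 ± 0.65 (adjusted p = 0.00466 by limma), 7.64-fold, followed by HSP23.5 with 4.16 ± 0.27, 17.9-fold. HSP26.5, ATHSP22.0 and HSP21 differed by 6.12 ± 0.91, 6.76 ± 0.60 and 6.92 ± 1.28, up to 121-fold. In OE the 5 differences ran from 2.46 for HSP23.6-MITO to 5.33 for HSP21, and in RD from 5.15 for HSP23.5 to 10.43 for HSP26.5. In OE the adjusted p of HSP23.6-MITO was 0.0716 without OE heat 1 and 0.0724 without OE NaCl 2 (limma).

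The genotype contrasts asked whether more HSFA6b, or its dominant-negative form, goes with other levels of these genes. Under control conditions OE was higher than WT for all 5 genes, and 0 of them passed, where 0.0173% of the tested probe sets were called in either direction. HSP21 differed by 4.85 ± 1.28, 28.9-fold, ATHSP22.0 by 2.92 ± 0.60, 7.58-fold, and HSP26.5 by 2.30 ± 0.91, 4.92-fold, with 95% intervals from 2.1 to 7.60, from 1.64 to 4.20 and from 0.34 to 4.25. These 3 genes had an unadjusted p under 0.05, as did 0.915% of all tested probe sets, and an adjusted p of 0.754 or 1 (limma). The size for HSP21 is uncertain, since its WT control arrays read 5.5 (Absent) and 81.2. It ran from 2.91 to 6.79 when single arrays were left out and was 4.08 with a floor of 16. HSP23.6-MITO differed by 1.29 ± 0.65 between groups without a Present array, and HSP23.5 by 0.16 ± 0.27. Against WT, RD differed by -0.25 ± 1.28 for HSP21, 0.19 ± 0.60 for ATHSP22.0, -2.28 ± 0.65 for HSP23.6-MITO, -0.43 ± 0.27 for HSP23.5 and -2.99 ± 0.91 for HSP26.5. Of these 0 passed, where 0.0460% of tested probe sets were called, and 2 genes had an unadjusted p under 0.05, as did 3.69% of all tested probe sets (limma). Against OE, RD was lower for all 5 genes and 2 passed, where 0.213% of tested probe sets were called lower. HSP26.5 differed by -5.29 ± 0.91 (adjusted p = 0.0336 by limma), at least 10.5-fold lower in RD, and HSP23.6-MITO by -3.58 ± 0.65 (adjusted p = 0.0432 by limma), the latter between 4 Absent values. Both calls were lost on leaving out any 1 of the 4 arrays, with a lowest adjusted p of 0.0635 for HSP23.6-MITO and 0.138 for HSP26.5 (limma), and with a floor of 16 or without an intensity trend. ATHSP22.0 passed in this contrast after quantile normalization (-2.86, adjusted p = 0.0371 by limma).

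Under heat 0 of the 5 genes passed between genotypes. Called in either direction were 0.115% of tested probe sets for OE against WT, 0.207% for RD against WT and 0.846% for RD against OE, and 0 of the 5 had an unadjusted p under 0.05 in any of these contrasts (limma). Over all tested probe sets 13.5%, 13.2% and 8.50% had one. RD lay below WT in all 5 log2 differences, -0.31 for HSP21, -0.26 for ATHSP22.0, -0.37 for HSP23.6-MITO, -0.48 for HSP23.5 and -0.53 for HSP26.5. After quantile normalization these were between -0.31 and -0.01. The narrowest 95% interval was that of HSP23.5, from -1.06 to 0.10, and the widest that of HSP21, from -3.06 to 2.44. These intervals use a spread pooled over all 9 groups, not that of the heat arrays alone. For HSP21 the standard deviation of the log2 signal was 2.746 in WT control, 0.707 in OE control and 2.892 in RD control. In the heat groups it was 0.081 in WT, 0.019 in OE and 0.265 in RD. OE against WT ran from -0.38 for HSP23.5 to 0.06 for HSP21, and RD against OE from -0.55 for HSP26.5 to 0.05 for ATHSP22.0. In RD against WT a difference of 1 log2 unit in either direction lies within the intervals of HSP21, ATHSP22.0, HSP23.6-MITO and HSP26.5. All 5 genes lay near the top of the intensity range on the heat arrays. Whether the signal still scales with the transcript level there was not tested.

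Under NaCl the RD line was lower than WT for all 5 genes, and 3 of them passed, where 0.409% of tested probe sets were called lower. HSP26.5 differed by -4.84 ± 0.91 (adjusted p = 0.0295 by limma), a size that rests on RD signals of 49.9 and, Absent, 3.8, and was -3.81 with a floor of 16 (adjusted p = 0.00385 by limma). HSP23.6-MITO differed by -3.73 ± 0.65 (adjusted p = 0.021 by limma), 13.2-fold, and HSP23.5 by -1.46 ± 0.27 (adjusted p = 0.0263 by limma), 2.76-fold. The plastid and endoplasmic reticulum genes did not pass, at -3.15 ± 1.28 for HSP21 (adjusted p = 0.695 by limma) and -2.13 ± 0.60 for ATHSP22.0 (adjusted p = 0.256 by limma). All 5 had an unadjusted p under 0.05, as did 6.12% of all tested probe sets, and the median of the 5 log2 differences was -3.15, against -0.02 over all tested probe sets. The 3 calls depend on single arrays, and that of HSP26.5 also on the intensity trend (adjusted p = 0.0568 without it, by limma). On the first array series only, HSP23.6-MITO (adjusted p = 0.0652) and HSP26.5 (adjusted p = 0.0698) also lost theirs (limma). Without WT NaCl 1, WT NaCl 2 or RD NaCl 2 the adjusted p of HSP23.6-MITO was 0.0695, 0.0982 or 0.112, and that of HSP26.5 0.0812, 0.13 or 0.147 (limma). HSP23.5 lost its call without WT NaCl 2, RD NaCl 1 or RD NaCl 2, with an adjusted p of 0.141, 0.0647 or 0.167 (limma). The differences themselves kept their sign, from -4.97 to -2.49 for HSP23.6-MITO, from -1.79 to -1.14 for HSP23.5 and from -6.70 to -2.99 for HSP26.5. All 5 genes were brighter on RD NaCl 1, the array with more mitochondrial-genome signal, than on RD NaCl 2, and the part of that array's difference in these values was not tested. RD NaCl 1 and RD NaCl 2 each lay below both WT NaCl arrays for all 5 genes. The 5 genes share these arrays, and the share of all tested probe sets with that order was not computed.

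RD against OE under NaCl gave the same direction in all 5 genes, and 4 passed, where 0.748% of tested probe sets were called lower. HSP26.5 differed by -6.48 ± 0.91 (adjusted p = 0.00358 by limma). Its size is uncertain, since RD NaCl 2 read 3.8 and was Absent: the difference was -4.62 without that array, -8.33 without RD NaCl 1 and -5.44 with a floor of 16, and it passed in each case. ATHSP22.0 differed by -4.18 ± 0.60 (adjusted p = 0.00358 by limma), at least 18.1-fold lower in RD, where both arrays were Absent. HSP23.6-MITO differed by -4.01 ± 0.65 (adjusted p = 0.0081 by limma), 16.1-fold, and HSP23.5 by -1.67 ± 0.27 (adjusted p = 0.0076 by limma), 3.19-fold. HSP21 differed by -4.81 ± 1.28 and did not pass (adjusted p = 0.143 by limma), except with a floor of 16 (-4.36, adjusted p = 0.0227 by limma). Between 2 and 4 genes passed when single arrays were left out, the fewest without OE NaCl 2, where the adjusted p was 0.0524 for HSP23.6-MITO and 0.104 for HSP23.5 (limma). HSP23.6-MITO also lost its call without OE NaCl 1 (adjusted p = 0.0791) and on the first array series only (adjusted p = 0.0691), and HSP23.5 without RD NaCl 2 (adjusted p = 0.0615, all by limma). OE against WT under NaCl was above 0 for all 5 genes, from 0.21 for HSP23.5 to 2.04 for ATHSP22.0, and 0 passed, where 0% of tested probe sets were called by limma and 296 (1.70%) had an unadjusted p under 0.05. Of the 5 genes, ATHSP22.0 was the 1 with an unadjusted p under 0.05, at a difference of 2.04 ± 0.60, and its 95% interval ran from 0.76 to 3.33. The comparisons of this paragraph share arrays with those of RD against WT.

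**Figure D3:**
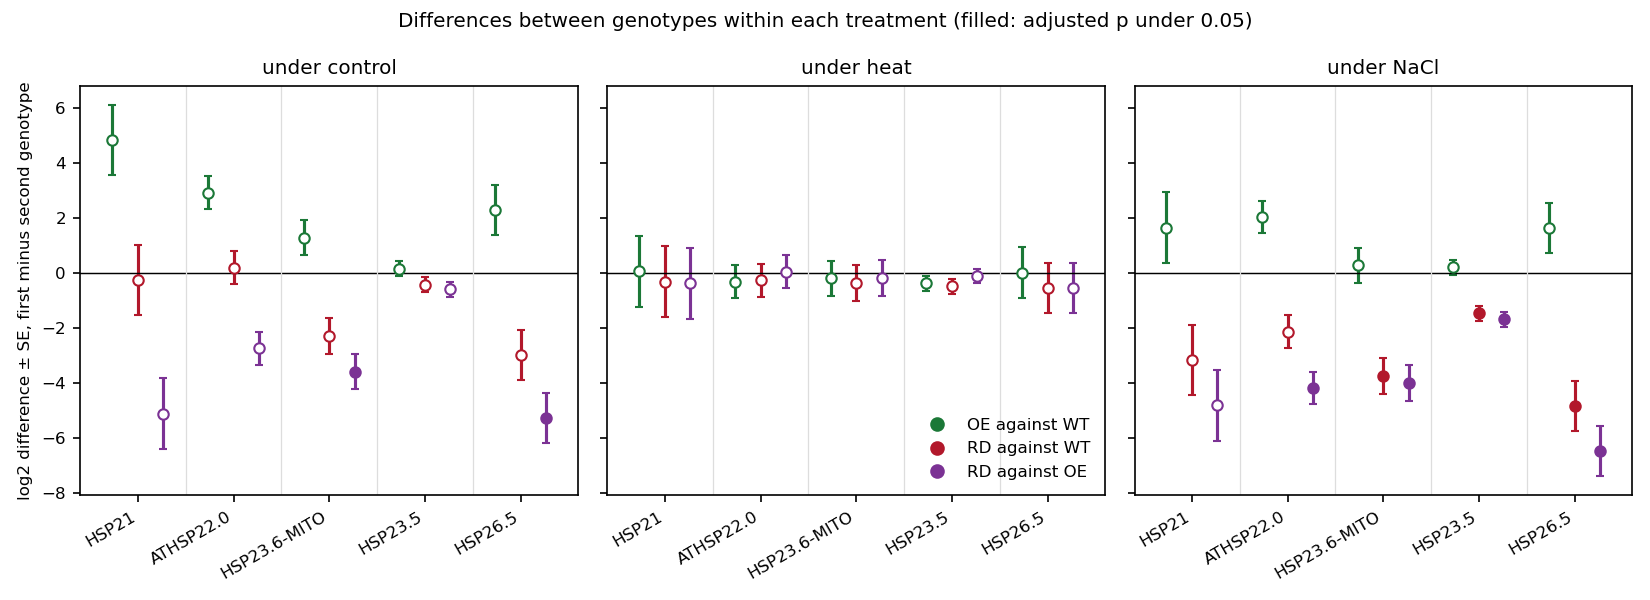
Log2 differences (± SE) between genotypes for each gene under control, heat and NaCl, with OE against WT in green, RD against WT in red, RD against OE in purple, and filled points where the limma adjusted p is under 0.05. Heat points lie between -0.55 and 0.06, while under NaCl all RD points lie below 0, down to -6.48 for HSP26.5.

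Whether the response to a treatment differed between genotypes was tested as the difference of the differences. For heat 0 of the 5 genes passed in any pair, where 0.0115% of tested probe sets were called for OE against WT, 0.00575% for RD against WT and 0.00575% for RD against OE. The heat response of OE minus that of WT was -4.79 ± 1.81 for HSP21 (adjusted p = 0.785 by limma) and -3.24 ± 0.84 for ATHSP22.0 (adjusted p = 0.633 by limma), both with an unadjusted p under 0.05, as had 6.16% of all tested probe sets. The heat response of RD minus that of OE was above 0 for all 5 genes, with a median of 3.40. Of the 5, 4 had an unadjusted p under 0.05, as had 3.53% of all tested probe sets, and the lowest adjusted p was 0.679 (limma). For RD minus WT 0 of the 5 had an unadjusted p under 0.05, against 6.36% of all tested probe sets (limma). For NaCl 0 of the 5 passed either, where 0% were called for OE against WT, 0.0173% for RD against WT and 0.0230% for RD against OE. The NaCl response of RD differed from that of WT by -1.04 for HSP23.5 to -2.90 for HSP21, below 0 for all 5 genes, with an adjusted p of 1 for each (limma). HSP23.5 (-1.04, 95% interval -1.86 to -0.22) and ATHSP22.0 (-2.33, 95% interval -4.14 to -0.51) had an unadjusted p under 0.05, as had 2.87% of all tested probe sets. The lower NaCl level of RD was called for 3 genes, while a smaller rise over its own control was called for 0.

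The order of the 9 groups shows where the genes part. In all 5 genes the 3 heat groups came first and OE under NaCl next. For HSP21 and ATHSP22.0 untreated OE followed, ahead of WT under NaCl and without overlapping it. OE under NaCl overlapped untreated OE for HSP21 but not for ATHSP22.0. RD under NaCl overlapped its neighbours among the untreated WT and RD groups for both genes. For HSP23.6-MITO and HSP23.5 all 3 NaCl groups preceded all 3 control groups, with RD under NaCl last of the NaCl groups and separate from both neighbours. HSP26.5 fell in between, since WT under NaCl preceded untreated OE, but RD under NaCl came after untreated WT and overlapped it. Across the 9 group mean log2 signals, which share arrays and the same 3 heat groups, Pearson's r was 0.99 between HSP21 and ATHSP22.0 and 0.97 between HSP23.6-MITO and HSP23.5. The lowest r among the 10 pairs was 0.85, between ATHSP22.0 and HSP23.6-MITO.

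Small heat shock proteins outside these organelles, and other stress genes of the same organelles, give the setting. Of 14 cytosolic, nuclear and peroxisomal loci, 10 had a tested probe set, and 7 rose and 0 fell under heat in WT, with a median log2 difference of 7.33. HSP17.6A and HSP17.6II, cytosolic class II chaperones, rose by 8.81 ± 0.45 and 8.48 ± 0.51, and AT5G37670, whose product is known from peroxisomes, by 8.31 ± 0.41. Under NaCl 7 rose and 1 fell, with a median of 3.96, led by HSP17.6A with 7.73 ± 0.45. In RD against WT under NaCl 9 of these 10 lay below 0, and 2 passed, AT5G37670 at -2.69 ± 0.41 (adjusted p = 0.0101 by limma) and HSP17.6II at -3.01 ± 0.51 (adjusted p = 0.0185 by limma), and the median was -1.50. In RD against OE under NaCl all 10 lay below 0 and 3 passed, with a median of -1.44. Of 21 heat shock factor loci 3 were tested, and HSF4, a class B factor, rose by 6.32 ± 0.29 under heat and by 2.47 ± 0.29 under NaCl, while HSF1 and HSF3 did not pass in either.

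Among 13 mitochondrial loci 5 were tested. All 5 rose under heat in WT, with a median log2 difference of 2.21, led by the matrix HSP70 gene MTHSC70-2 (6.35 ± 0.22), the chaperonin gene HSP60 (3.97 ± 0.39) and its co-chaperonin CPN10 (2.21 ± 0.24). Under NaCl 2 of the 5 rose, MTHSC70-2 by 2.96 ± 0.22 and the alternative oxidase gene AOX1A by 1.12 ± 0.35, and the median was 0.69. Of 11 plastid loci 3 were tested. The chaperonin subunit gene Cpn60beta2 rose by 4.17 ± 0.36 under heat and by 1.22 ± 0.36 under NaCl, and AT1G36390, whose product is a GrpE-type co-chaperone, fell by 1.91 ± 0.27 under NaCl. Of 18 endoplasmic reticulum loci 6 were tested, and 1 rose under heat, BZIP28 (2.44 ± 0.19), a membrane-bound transcription factor of the unfolded protein response. Under NaCl 2 rose, BZIP28 (1.61 ± 0.19) and BZIP60 (1.22 ± 0.31), and 3 fell, among them the calnexin homologue AT5G07340 (-1.47 ± 0.41) and the calreticulin gene CRT1a (-1.46 ± 0.37). None of the 14 tested loci of the mitochondrial, plastid and endoplasmic reticulum lists was called in RD against WT under NaCl, where 76 of all 17379 tested probe sets were. Their log2 differences ran from -0.69 to 0.85. Heat shock factors had 0 of 3 called in that contrast. With so few calls over all probe sets, these counts do not set the lists apart from the rest of the array.

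**Figure D4:**
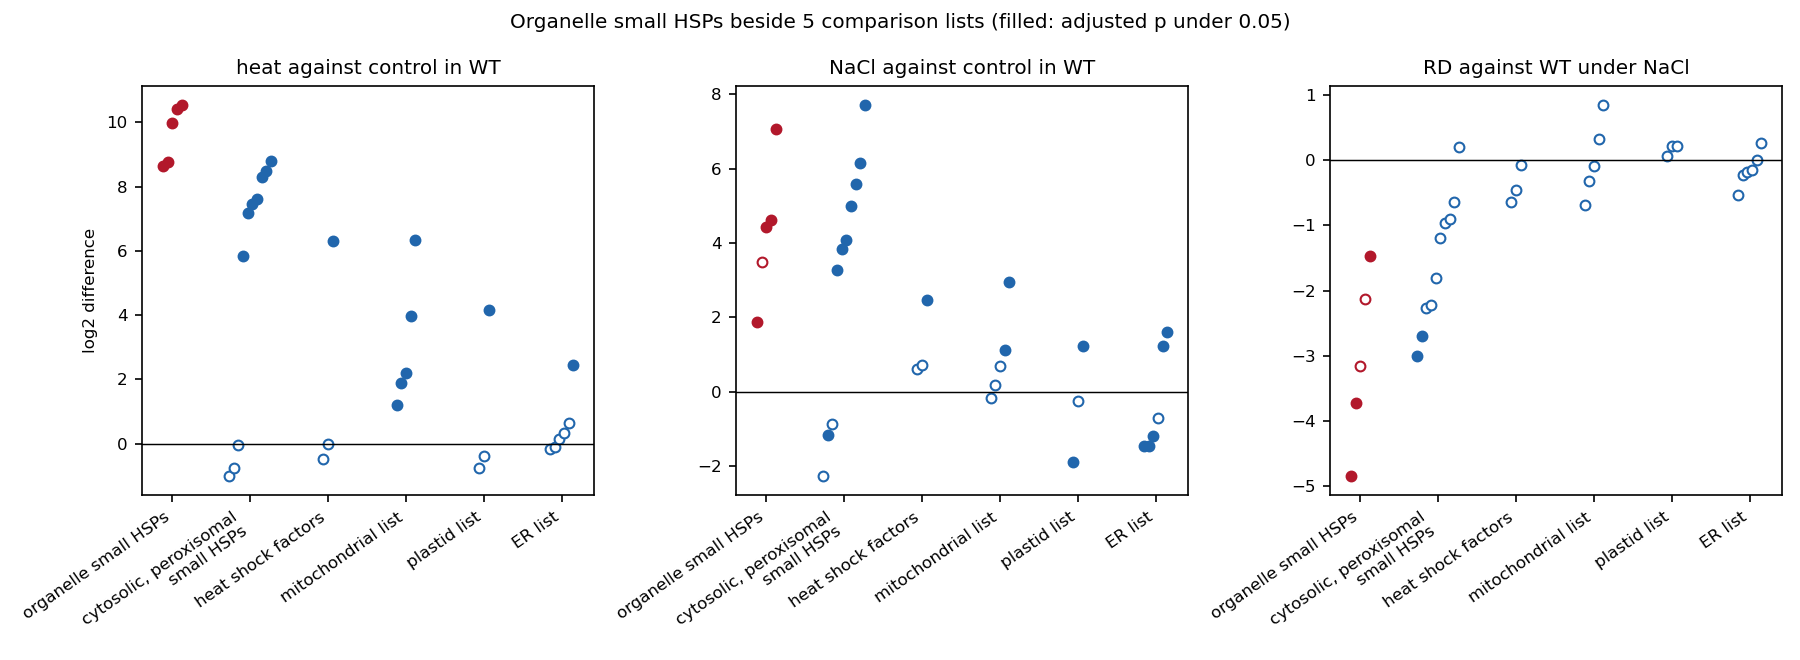
Log2 differences of the organelle small heat shock proteins (red) and of the tested genes of 5 comparison lists (blue) for heat against control in WT, NaCl against control in WT, and RD against WT under NaCl, 1 point per gene, filled where the limma adjusted p is under 0.05. The filled points of RD against WT under NaCl are 3 organelle small heat shock proteins (-4.84 to -1.46) and 2 cytosolic or peroxisomal ones (-3.01 and -2.69).

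Genes with the most similar pattern over the 9 group means, among tested probe sets with exactly 1 gene, differed between the organelle forms. HSP23.5 was closest to MTHSC70-2 (r = 0.998), AT5G35320 and Hop2, a gene for an HSP70 and HSP90 co-chaperone. HSP23.6-MITO was closest to the cytosolic class I gene AT1G53540 (r = 0.996), AT3G14200 and HSP17.6II. HSP21 and ATHSP22.0 were closer to each other (r = 0.991) than to any gene outside the 5. Among their 3 closest genes outside the 5 they shared AT5G12110 and AT5G47610, with r from 0.967 to 0.980. The array describes AT5G12110 as an elongation factor 1B subunit. HSP26.5 was closest to AT4G23493 (r = 0.996), AT5G12110 and AT2G23110, which the array describes as similar to late embryogenesis abundant proteins. These likenesses rest on 9 groups that share arrays.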

How the data were processed

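Each array was an Affymetrix oligonucleotide array hybridised with biotin-labelled RNA of whole seedlings, prepared from 10 µg of total RNA. Per the labels, the deposited intensity values (signals) come from MAS5, with no version stated. The mean after trimming 2% at each end was 500.0 to 500.1 on every array, which shows a common scaling before deposit. The authors also deposited a detection p-value and a call for each probe set. The labels name no genome build, and coordinates are left out. Genes were named through the platform's annotation table and RefSeq gene numbers (13501 probe sets with 1 gene). Of the 5 genes, 3 were named that way and 2, HSP21 and HSP23.6-MITO, by the array's own description.

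Signals were floored at 0.1 and taken to log2. A probe set was tested where both arrays of 1 group or more called it Present, which held for 17379 of 22746. The model, from limma 3.58.1 under R 4.3.3 (lmFit, eBayes with an intensity trend), had 9 group means over 18 arrays, 9 residual degrees of freedom, 4.76 prior ones and 24 contrasts. Within a contrast, Benjamini-Hochberg adjustment ran over all tested probe sets, and calls used an adjusted p under 0.05. On simulated data with changes in WT heat alone, over 17379 probe sets, the fit for heat against control in WT called 71 of 100 changed by a log2 difference of 2 and 99 of 100 changed by 4, with 8 false calls. The simulated noise was normal with the same spread in every group. The log2 spread of HSP21 was 2.746 in WT control and 0.081 in WT heat, so these rates may not hold for such genes. SE is limma's moderated standard error, which the 95% intervals also use. Folds are 2 raised to the difference of mean log2 signals and are bounds ("at least") where the dimmer group had no Present array. No fold is given where neither group had one. A bound uses the lowest Present signal of any probe set on the dimmer array where this exceeded the measured signal. That level is not a detection limit of the gene itself, and HSP23.6-MITO was Absent at signals up to 106.4. The true fold may therefore be smaller than a bound. Precision rests on 2 arrays a group.

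The genes and comparison lists were chosen with earlier results of these data known. All 5 genes were tested in every contrast. Where groups are said not to overlap, the share of all tested probe sets doing so was not computed. For the differences of responses between genotypes the text gives only counts, a range or part of the genes. From each list the text names at most the 3 called genes with the largest absolute log2 difference in heat and in NaCl against control in WT. HSF1, HSF3, BZIP60 and the list genes called in RD against WT were named after their values were seen. For each of the 5 genes the 3 most similar patterns outside the 5 were named. A search of promoters for motifs was planned and not run here. Alternatives were quantile normalization, no or a stricter filter, a floor of 16, no intensity trend, a replicate block, the array series as a block or the first series alone, and leaving out each array. Files were read in Python 3.11.15 (pandas 2.3.3, numpy 2.4.6), with figures from matplotlib 3.10.9.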

Additional observations from a re-analysis of the deposited data

How the results depend on the processing

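Left out of the numbers below were the heat responses of RD against WT and against OE. The NaCl responses of OE against WT and of RD against OE were left out too. Over the 8 alternatives that keep all groups, 778 of 800 recomputed differences of the 5 genes kept their direction and their side of the threshold, 13 lost a call, 4 gained one and 5 changed sign. With single arrays left out the numbers were 389, 32, 1 and 18 of 440. No called difference changed sign under any of these, and the 5 heat calls in WT and in RD were kept in every one. The cause of the changes below was not tested.

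The count of called genes in RD against OE under control moved from 2 to 0 with a floor of 16 and to 0 without an intensity trend, while quantile normalization added ATHSP22.0 (adjusted p = 0.0371 by limma), and leaving out single arrays gave 0 each time. In RD against WT under NaCl it moved from 3 to 1 on the first array series only, and leaving out single arrays gave 0 to 2. In RD against OE under NaCl leaving out single arrays gave 2 to 4. The other counts stayed within 1.5 times, with 3 to 5 for NaCl in WT and 2 to 3 for NaCl in OE and in RD.

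The sign changes were all among differences that did not pass. On the first array series only, HSP21 under NaCl in OE was -0.039, HSP23.6-MITO in OE against WT under NaCl -0.037 and HSP26.5 in OE against WT under heat -0.175, the last also -0.296 with the array series as a block. HSP23.5 in RD against OE under heat was 0.004 after quantile normalization. Leaving out single arrays gave -0.193 to 0.807 for HSP21 under NaCl in OE, -1.441 to 2.648 for HSP21 and -1.332 to 0.42 for ATHSP22.0 under NaCl in RD. For RD against WT under control it gave -2.297 to 1.792 for HSP21 and -0.576 to 0.961 for ATHSP22.0, and for HSP23.5 in OE against WT -0.017 to 0.337 under control and -0.117 to 0.537 under NaCl. Under heat it gave -0.175 to 0.223 for HSP26.5 in OE against WT, and in RD against OE -0.204 to 0.31 for ATHSP22.0, -0.461 to 0.114 for HSP23.6-MITO and -0.309 to 0.106 for HSP23.5.

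Same-numbered arrays deviated together at a median r of 0.06 (-0.076 to 0.627) over 36 pairs of groups, with 11 over 0.1, so the numbers were not taken to pair the arrays. With the replicate number as a block the count of called genes was the same in all 24 contrasts, for example 3 for RD against WT under NaCl. Signals near the detection limit hold the control differences and those of HSP21, ATHSP22.0 and HSP26.5 in RD under NaCl, where single arrays move a log2 value by several units.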
